A study of Mus musculus with 2 samples.

Results

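Lone H3K27me3 peaks are replicated peaks with no other replicated peak within 3000 bp, measured from end to end. They were found by that rule on chromosomes 1 to 19, where 7267 of the 37152 replicated peaks (19.6%) were lone and 29885 had a neighbour. The whole replicated list, with the other chromosomes, held 38300 peaks. The rule used only the positions in this list. Because width, signal value, p and q belong to the same list, and because the list was derived from both replicates, differences between the lone and the remaining peaks are given as descriptions, with no test.

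The study mapped histone H3 trimethylated at lysine 27 (H3K27me3) by chromatin immunoprecipitation and sequencing in MEL, an immortalised mouse erythroleukaemia line. It had 1 group, with no treatment or genotype named in the labels, and 2 biological replicates that the labels tie to the same biosample record. Whether they were grown apart is not stated, and their spread may be technical. Each replicate has its own peak list on mm10 (68822 and 103621 peaks on chromosomes 1 to 19 in replicates 1 and 2), and the pooled list was called on both together.

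H3K27me3 is written by Polycomb repressive complex 2, through its catalytic subunits Ezh1 and Ezh2, and is read by the Cbx proteins of Polycomb repressive complex 1. In mammals the complex gathers at unmethylated CpG-rich promoters of silent developmental genes and can spread from there into broad domains. Weak enrichment also occurs over intergenic sequence far from such sites. The deposited lists are in a narrow-peak format, in which a broad domain can appear as many short pieces. A lone peak is a piece with no other piece of the replicated list beside it, though other lists may hold one there.

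Sequences of 4 lone peaks are shown, each chosen as an extreme of strength, CpG or masking. They are not typical lone peaks. All are from the NCBI RefSeq genome GRCm38.p6, the build that mm10 names, on the plus strand. Peak_676 (chr17:45550619-45550804) was the strongest lone peak by p within 1 kb of a protein-coding start whose sequence held no annotated UTR, 941 bp from Tmem151b. Peak_89 (chr12:77852609-77852908, the central 300 of 1941 bp) was the strongest under the same condition wherever it lay, and was intergenic. Peak_28286 (chr1:60043287-60043455) had the most CpG per base, 15 in 169 bp, and lay 164 bp from a start of Ica1l. In these first 3 the capitals mark CpG.
Peak_676: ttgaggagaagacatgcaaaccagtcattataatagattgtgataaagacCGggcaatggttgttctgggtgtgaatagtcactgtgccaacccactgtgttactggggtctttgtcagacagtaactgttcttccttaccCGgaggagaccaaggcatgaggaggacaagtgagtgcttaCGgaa
Peak_89: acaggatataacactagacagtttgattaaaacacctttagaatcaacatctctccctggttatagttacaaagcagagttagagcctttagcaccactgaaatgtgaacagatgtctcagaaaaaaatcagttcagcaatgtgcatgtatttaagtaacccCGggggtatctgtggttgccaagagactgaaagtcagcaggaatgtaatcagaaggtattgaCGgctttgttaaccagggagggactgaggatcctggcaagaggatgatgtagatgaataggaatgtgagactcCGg
Peak_28286: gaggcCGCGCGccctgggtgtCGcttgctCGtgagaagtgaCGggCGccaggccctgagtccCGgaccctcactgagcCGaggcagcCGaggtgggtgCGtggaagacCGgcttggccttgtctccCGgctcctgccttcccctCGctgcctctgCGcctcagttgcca
Peak_2248 (chr19:29990443-29990634, intergenic, nearest to Trpd52l3) had the highest repeat-masked share among the 100 strongest lone peaks, and its capitals mark the 72.4% of bases that the reference soft-masks.
Peak_2248: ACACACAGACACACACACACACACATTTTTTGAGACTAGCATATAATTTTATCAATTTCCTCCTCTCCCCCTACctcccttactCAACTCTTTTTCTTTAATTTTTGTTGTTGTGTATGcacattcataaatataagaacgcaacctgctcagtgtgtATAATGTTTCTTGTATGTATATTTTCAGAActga
A CA repeat opens Peak_2248, whereas Peak_676 and Peak_28286 hold no masked base. Peak_89 holds 3 CpG in the printed stretch. Over its whole width it has 0.773 CpG per 100 bp, near the mean of 0.802 in lone peaks.

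Lone peaks were narrow and weak. Their median width was 240 bp, with the middle 80% between 165 and 419 bp, against 290 bp (174 to 603 bp) for the remaining peaks. Widths of 500 bp or more occurred in 378 lone peaks (5.20%) and in 16.4% of the remaining ones. Only 15 lone peaks (0.206%) reached 1000 bp, against 662 remaining peaks (2.22%). The shortest peak of either kind measured 150 bp, which is also the lower end of the library size range in the labels.

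The authors' signal value, a score whose definition is not given, had a median of 3.33 in lone and 3.54 in remaining peaks. The median −log10 p was 3.58 in lone and 4.32 in remaining peaks, and the median −log10 q was 0.53 and 0.98. A −log10 q of 2 or more, which 10.9% of all replicated peaks reached, was found in 217 lone peaks (2.99%, exact 95% interval 2.61% to 3.40%) and in 12.8% of the remaining peaks. Nearly all lone peaks were thus below that level. The p column moves in steps: 2037 lone peaks shared a −log10 p of 3.58, another 1740 shared 2.81 and 1077 shared 4.41. Summits sat near the middle of the peak in both kinds, at a median of 48.0% of the width in lone and 48.2% in remaining peaks.

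**Figure D1:**
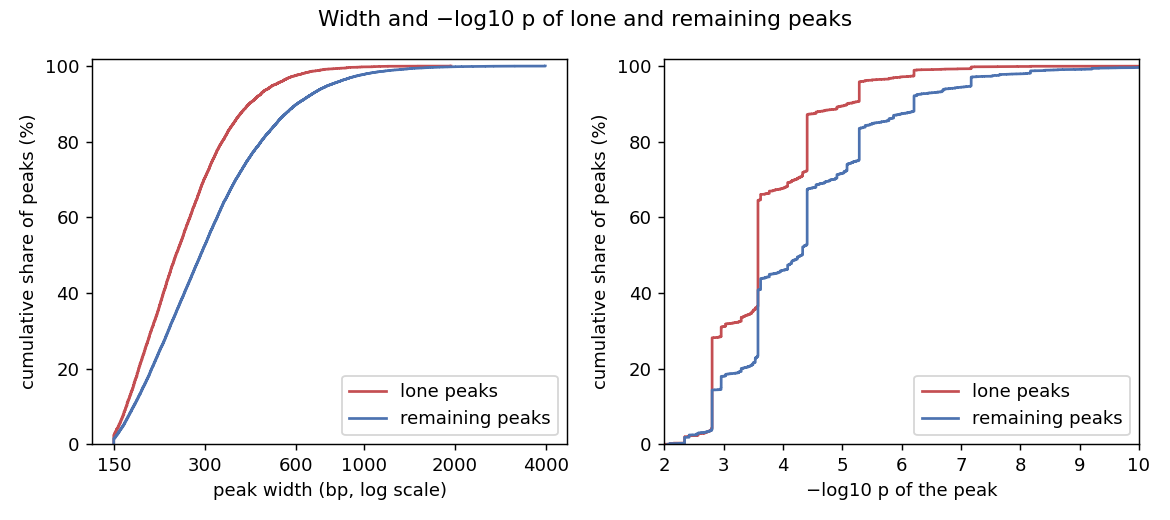
Cumulative share of peaks (vertical, %) against width in bp on a log axis (left) and against −log10 p, shown from 2 to 10 (right), for 7267 lone and 29885 remaining peaks. The lone curve lies to the left in both panels (medians 240 against 290 bp, and 3.58 against 4.32), and the steps at right are the shared values.

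The distance that made a peak lone was usually modest. The median gap to the nearest replicated peak was 9669 bp, and 3714 lone peaks (51.1%) had a neighbour within 10 kb. Gaps over 100 kb were found for 670 lone peaks and gaps over 1 Mb for 50. For 4063 lone peaks (55.9%) the nearest peak was itself lone. A group of 2 or more peaks lay within 10 kb of 2183 lone peaks (30.0%), and a group 10 kb or longer lay within 20 kb of 311 (4.28%). There were 484 groups of that length, and the share of the genome lying this near to them was not computed.

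Peaks on either side of the threshold were alike. The 832 peaks with a gap over 2500 and up to 3000 bp had a median width of 249 bp, a median −log10 p of 3.58, and own-list peaks in 76.3% (replicate 1) and 86.2% (replicate 2). The 601 lone peaks with a gap up to 3500 bp had 254 bp, 3.58, 77.9% and 88.0%. The plot of gaps shows no break at 3000 bp.

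**Figure D2:**
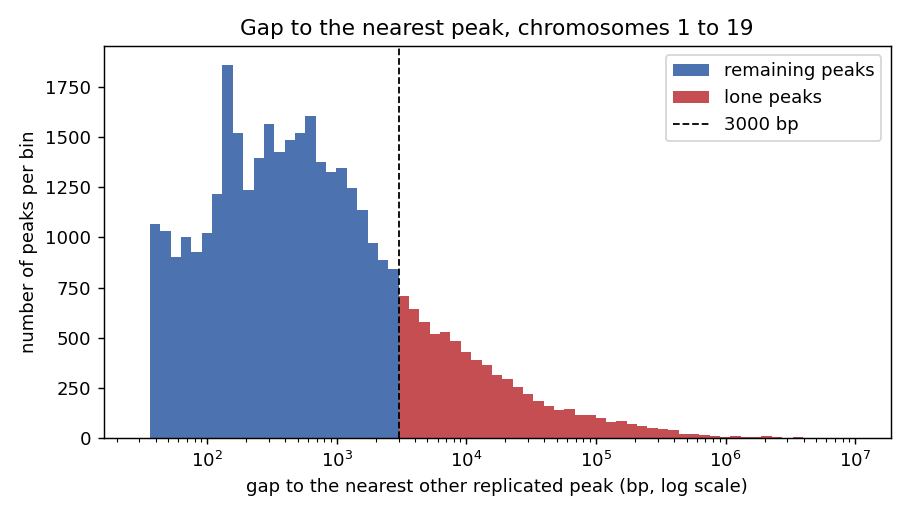
Number of peaks per bin (vertical) against the gap to the nearest other replicated peak in bp (log axis), with the rule's 3000 bp as a dashed line. Remaining peaks are blue and lone peaks red; the lone peaks form the right-hand slope, with a median gap of 9669 bp and a longest of 4662945 bp.

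Many lone peaks had company outside the replicated list. In the pooled list 3308 lone peaks (45.5%) had no other peak within 3 kb, 2258 had 1 and 1701 had 2 or more. The 3308 were slightly narrower than the other 3959 (231 against 250 bp), had the same median −log10 p of 3.58, and were overlapped by replicate 1 in 71.3% against 75.4%. Own peaks were counted within 3 kb, those overlapping the lone peak included. Replicate 1 had 2 or more at 3775 lone peaks (51.9%) and replicate 2 at 5440 (74.9%), against 96.3% and 99.1% of the remaining peaks. A peak could therefore be lone in the replicated list and have several peaks of a single replicate over or near it. Only 979 lone peaks (13.5%) had no other pooled peak and at most 1 own peak of each replicate within 3 kb, and both replicates overlapped 428 of those.

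Each replicate's own list overlapped most lone peaks by at least 1 bp, which the making of the list favours. Replicate 1 had a peak at 5345 lone peaks (73.6%, exact interval 72.5% to 74.6%) and at 84.0% of the remaining peaks. Replicate 2 had one at 6340 (87.2%, 86.5% to 88.0%) and at 90.7%. Both replicates overlapped 4490 lone peaks (61.8%) and 74.98% of the remaining ones. A further 1850 lone peaks (25.5%) were overlapped by replicate 2 alone, 855 (11.8%) by replicate 1 alone and 72 (0.991%) by neither. Of the remaining peaks these shares were 15.7%, 8.98% and 0.345%. The replicate with the longer list thus accounted for most of the peaks seen once in both kinds.

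Where an own peak was present it was mostly below a −log10 q of 2. Of lone peaks with an own peak, 31.5% in replicate 1 and 15.8% in replicate 2 had one at −log10 q of 2 or more. The shares for remaining peaks with an own peak were 49.7% and 30.0%. Over all lone peaks, with or without an own peak, the shares were 23.2% and 13.8%, against 41.7% and 27.2% of the remaining peaks. Own peaks at lone peaks had a median −log10 p of 4.62 in replicate 1 and 3.76 in replicate 2, the same as over all own peaks of each list. A −log10 q of 2 or more in the replicated list and in both own lists was found for 88 lone peaks (1.21%) and for 7.55% of the remaining peaks. Of the lone peaks without an overlap, 1018 had an own peak of replicate 1 within 3 kb and 711 had one of replicate 2.

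Because lone peaks were weak, the overlap was also set out by band of −log10 p. In replicate 1 the lone peaks had the lower share in 7 of 7 bands, from 63.4% against 70.6% in the weakest band (up to 2.9) to 95.2% against 97.1% above 6. In replicate 2 lone peaks were lower in 4 bands and higher in 3, with 80.0% against 80.9% in the weakest and 98.1% against 98.9% in the strongest. Within bands lone peaks were still the narrower in 7 of 7, from 228 against 250 bp to 320 against 467 bp.

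**Figure D3:**
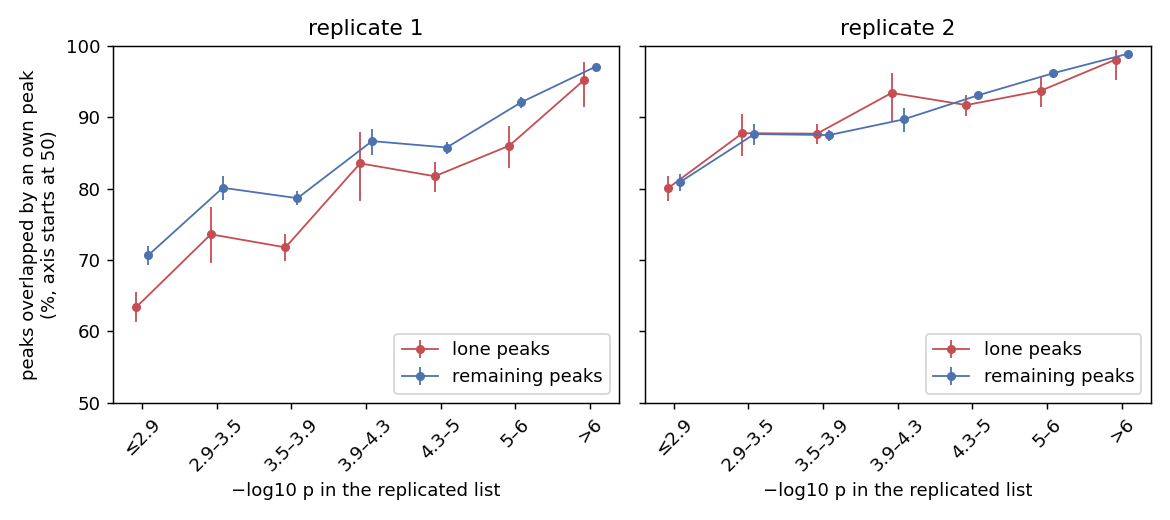
Share of replicated peaks overlapped by a peak of replicate 1 (left) and replicate 2 (right) in % (axis from 50), by band of −log10 p, with exact 95% intervals. Lone peaks (red) lie below remaining peaks (blue) in all 7 bands for replicate 1, and the lines cross for replicate 2.

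The replicated list holds only what was retained after both replicates were read, so the rule was also applied to each replicate alone. Replicate 1 had 11965 lone peaks of its own, of which 2162 (18.1%, exact interval 17.4% to 18.8%) were overlapped by any peak of replicate 2, against 50.5% of its remaining peaks. Replicate 2 had 16350, of which 1087 (6.65%, 6.27% to 7.04%) were overlapped by replicate 1, against 34.2%. As a background, 1.77% of all 200 bp tiles of these chromosomes were overlapped by a peak of replicate 2 and 1.18% by one of replicate 1. Lone peaks of either replicate thus recurred in the other more often than tiles are covered and less often than its other peaks. Tiles of 200 bp are slightly longer than these peaks, whose median widths were 159 and 158 bp.

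The lower recurrence was present in strong and in weak peaks. Among peaks of replicate 1 with −log10 q of 2 or more, 24.8% of 2012 lone peaks and 63.1% of the remaining ones were overlapped by replicate 2. For replicate 2 the shares were 15.4% of 544 lone peaks and 59.5%. Of the lone peaks of a single replicate, 20.0% (replicate 1) and 8.96% (replicate 2) overlapped a replicated peak. The 73.6% and 87.2% given above describe lone peaks after that selection, not lone peaks as each replicate called them.

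The density of lone peaks ran from 1.23 per Mb of known sequence on chromosome 8 to 5.20 on chromosome 11, a 4.22-fold range, with a coefficient of variation of 32.3% over 19 chromosomes. The remaining peaks ran from 4.03 to 46.1 per Mb on the same chromosomes, an 11.5-fold range, with a coefficient of variation of 74.1%. Chromosome 11 carried much of that range, since the next highest, chromosome 19, had 22.3 remaining and 5.17 lone peaks per Mb. Because the rule selects on spacing, crowded chromosomes lose lone peaks by construction, and the narrower range of the lone peaks is not a result apart from it. Lone peaks were 10.1% of the peaks of chromosome 11 and 30.2% of those of chromosome 18. The lone peaks had the lower median width, the lower median −log10 p and the lower share overlapped by each replicate on 19 of 19 chromosomes.

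**Figure D4:**
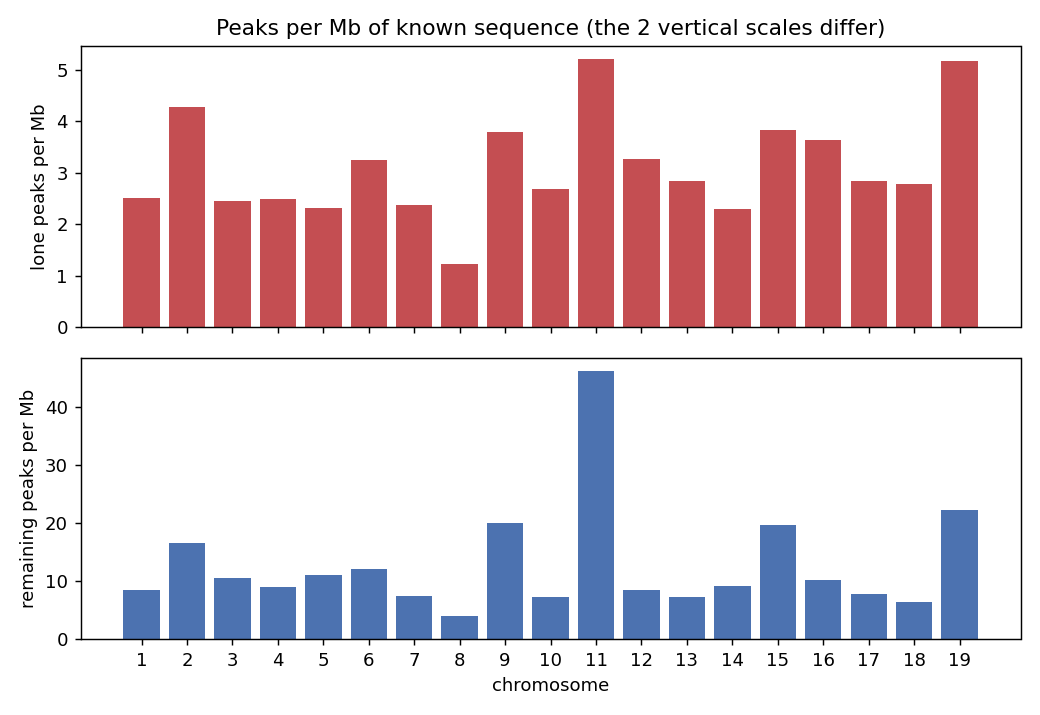
Lone peaks (top) and remaining peaks (bottom) per Mb of known sequence (vertical, scales differ) for chromosomes 1 to 19. Lone peaks range from 1.23 to 5.20 per Mb and remaining peaks from 4.03 to 46.1 per Mb; chromosome 11 is the highest and chromosome 8 the lowest in both.

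By annotation, lone peaks were more often intergenic. Classes were assigned in the order promoter (within 1 kb of any protein-coding transcript start), exon, intron and intergenic. Of the lone peaks, 4406 (60.6%) were intergenic, against 56.3% of the remaining peaks and 57.8% of 200 bp tiles of the genome. Introns held 2309 lone peaks (31.8% against 34.2% and 34.9%) and exons 324 (4.46% against 5.61% and 4.52%). Promoters held 228 lone peaks (3.14%, exact interval 2.75% to 3.56%) against 3.87% of the remaining peaks and 2.80% of tiles. Peaks are longer than tiles on the whole and so touch a promoter more readily. The lone share was the higher on 17 of 19 chromosomes for intergenic sequence and the lower on 13 for promoters. At −log10 q of 2 or more the order of the promoter shares turned, with 5.99% of 217 lone and 5.27% of the remaining peaks.

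Lone peaks also lay farther from genes. The median distance to a protein-coding transcript start was 23808 bp for lone and 17668 bp for remaining peaks, and it was longer for lone peaks on 19 of 19 chromosomes. A distance over 100 kb from any protein-coding gene was found for 579 lone peaks (7.97% against 4.73%). Over 500 kb there were 25 lone and 7 remaining peaks, although lone peaks are the smaller group. Long non-coding RNA genes overlapped 9.30% of lone and 8.90% of remaining peaks.

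In base composition the lone peaks stood near the genome. Median GC content was 42.1% in lone and 43.3% in remaining peaks, and 42.0% in tiles. The lone median was the lower on 18 of 19 chromosomes and in 7 of 7 bands of −log10 p. In the 1 kb on each side of the peaks GC was 43.5% for lone and 44.0% for remaining peaks, so both kinds were local minima. GC below 35% was found in 1089 lone peaks (14.99%) and in 10.6% of remaining peaks. Among lone peaks GC was lower at long gaps, going from 42.6% at gaps up to 3500 bp to 39.6% at gaps over 300 kb, and the share overlapped by replicate 1 went from 77.9% to 65.4%. The share overlapped by replicate 2 was 88.0% and 87.6% at the same gaps.

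CpG dinucleotides, the feature of the promoters where the complex gathers, were not dense in lone peaks. The mean was 0.802 CpG per 100 bp in lone peaks, 0.865 in remaining peaks and 0.846 in tiles. In the central 200 bp, 12 lone peaks (0.165%, exact interval 0.0854% to 0.288%) had GC over 50% with a CpG observed-to-expected ratio over 0.6, against 0.218% of remaining peaks and 0.9703% of tiles. No CpG at all was found there in 24.7% of lone peaks, 22.9% of remaining peaks and 30.0% of tiles. Peak_28286, printed above, is thus an exception among lone peaks: it has 70.4% GC, a −log10 p of 3.58, and no peak of replicate 1 over it.

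Soft-masked repeats were scarce in both kinds of peak. They made up a mean of 18.7% of the bases of lone peaks and 19.7% of remaining peaks, against 33.5% of tiles. The 1 kb on each side had 27.28% and 27.04%. No masked base was found in 1744 lone peaks (23.999%) and in 19.1% of remaining peaks. More than 90% was masked in 22 lone peaks (0.303%) and in 0.244% of remaining peaks. In the central 200 bp the median masked share was 12.5% in both kinds, with means of 18.62% in lone and 19.34% in remaining peaks. The central 32 bases occurred once in the genome for 99.4% of lone and 99.1% of remaining peaks. Reads from repeats are harder to place, and how multiply mapping reads were treated is not given in the sources used here.

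**Figure D5:**
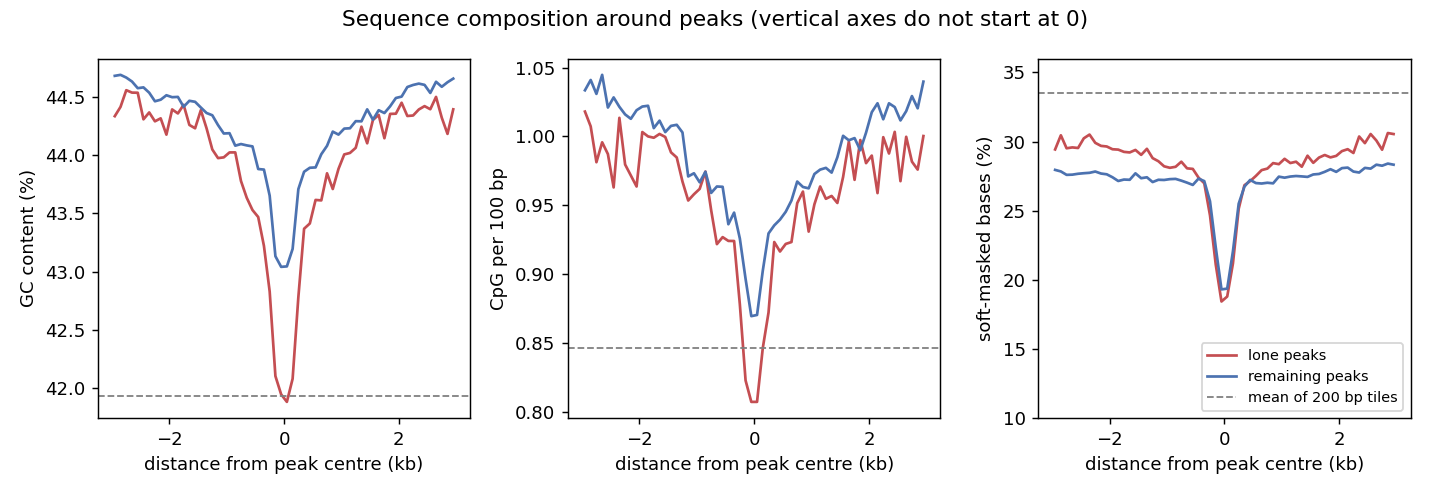
Mean GC content (%), CpG per 100 bp and soft-masked bases (%) in 100 bp bins by distance from the peak centre (kb) for lone (red) and remaining peaks (blue), with the mean of 200 bp tiles dashed; the vertical axes do not start at 0. Both kinds dip at the centre, where lone peaks reach 41.9% GC, and their masked share is at its lowest, 18.4%, there.

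Short motifs were counted in the central 200 bp on both strands, as a description. AGATAA, the core bound by GATA factors, was found in 11.4% of lone peaks, 11.4% of remaining peaks and 13.2% of tiles. CCATNTT, bound by YY1, was found in 14.97%, 15.28% and 15.98%. The E-box CAGCTG was found in 7.82%, 8.85% and 7.37%, and GCGCGC, which itself holds CpG, in 0.110%, 0.157% and 0.371%. Runs of at least 6 CA or TG dinucleotides, as at the start of Peak_2248, were found in 1.78%, 2.02% and 3.12%. Runs of at least 6 GA or TC were in 0.482%, 0.666% and 1.38%, and runs of at least 12 A or T in 1.72%, 1.89% and 2.36%. A window could hold several motifs, and none of the words searched contains another. All 3 kinds of run were less frequent in lone peaks than in tiles.

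The 10 lone peaks with the highest −log10 p show what the strong end looked like. They were 186 to 1941 bp wide, with −log10 p from 7.77 to 12.1. Both replicates overlapped 9 of them, 5 had no other pooled peak within 3 kb, 6 were intergenic and 4 lay on chromosome 11. The strongest, Peak_30 (chr16:91730127-91731257), overlapped a start of Itsn1, which encodes a scaffold of endocytosis, and also lay within the annotated span of Atp5o, which encodes a subunit of ATP synthase. It was 1131 bp wide, 208126 bp from the next replicated peak, and its own peaks had −log10 p of 18.7 in replicate 1 and 6.75 in replicate 2. It had no other pooled peak within 3 kb. Replicate 2 had 3 own peaks over it or within 3 kb of it, a count that includes overlapping ones. Both replicates called it, at unequal strength.

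Peak_89, 340512 bp from the nearest protein-coding gene, Gm6657, was the widest lone peak at 1941 bp, with own −log10 p of 16.6 and 10.7 in replicates 1 and 2. Peak_196 (chr1:135319942-135320873) lay 3933 bp from Lmod1, a gene of smooth muscle actin filaments, with 7.47 and 11.8. Unlike Peak_30 it had 4 other pooled peaks within 3 kb. Peak_566 (chr8:25145789-25146180) lay 8371 bp from Tacc1, a gene of a centrosomal coiled-coil protein, 116211 bp from the next replicated peak, with 10.7 and 4.62. Peak_445 (chr11:78947262-78947643), in an intron of the inducible nitric oxide synthase gene Nos2, had 10.7 in replicate 2 and no overlapping peak in replicate 1. It was the only one of the 10 without an own peak in both replicates.

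On chromosome 11, Peak_339 (chr11:88822083-88822671) and Peak_452 (chr11:88887863-88888453) flanked Akap1, whose protein anchors protein kinase A at mitochondria. Peak_339 had own −log10 p of 10.1 and 3.02 in replicates 1 and 2, and Peak_452 had 5.08 and 10.7. The order of the replicates was opposite at these neighbours. Peak_411 (chr11:120211037-120211368), 21578 bp from Bahcc1, had 14.1 and 2.96. Peak_644 (chr10:128632053-128632412) lay in an exon of Ikzf4, of the Ikaros family of zinc finger factors, with 10.3 and 4.33. Peak_676 near Tmem151b had 8.11 in both replicates.

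Transcript starts with a lone peak were few. Of 20698 protein-coding genes, 229 (1.11%) had a lone peak within 1 kb of a transcript start and 609 (2.94%) had a remaining one. The 10 with the highest −log10 p, a set chosen by strength, were overlapped by both replicates in 10 of 10 cases. They were at Itsn1, Tmem151b, Tdrd5, Rgs22, Lnx1, Il33, Crxos, Pde9a, 2300002M23Rik and Fam135a. Tdrd5, of the piRNA pathway of male germ cells, had Peak_749 (chr1:156304046-156304248), 381 bp from its start, with own −log10 p of 5.29 and 9.93. Rgs22, a regulator of G protein signalling, had a wide peak over its start, Peak_1179 (chr15:36040501-36041587, 1087 bp), with 8.50 in both replicates. Il33, which encodes an alarm cytokine of barrier tissues, had Peak_1738 (chr19:29950956-29952031, 1076 bp) over its start, with 8.07 and 9.56.

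The other starts carried narrower or more distant peaks. Lnx1, a ubiquitin ligase gene, had Peak_1464 (chr5:74624429-74625311) 907 bp from a start, with 11.2 and 4.62. Pde9a, a phosphodiesterase of cyclic GMP, had Peak_3099 (chr17:31387007-31387267), with 10.7 and 3.76. Crxos had Peak_2517 (chr7:15900385-15900650), of which 57.9% was soft-masked, with 5.61 and 7.44. At Lnx1 and Pde9a replicate 1 was the stronger, and at Crxos replicate 2.

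Among gene families, lone peaks at starts were counted beside the 1.11% of all genes. Of 39 Hox genes, which pattern the body axis, 2 had one: Hoxb8, with Peak_12854 (chr11:96281745-96281927), overlapped in replicate 1 only, and Hoxc12, with Peak_38776 (chr15:102935741-102935947), overlapped in replicate 2 only. Their −log10 p was 4.41 and 3.30, against a median of 3.58 over all lone peaks, and neither reached a −log10 q of 2. Solute carriers had 10 of 372 (2.69%), and olfactory receptors 14 of 1126 (1.24%), a share near that of all genes. Vomeronasal receptors had 2 of 326, potassium channels 1 of 91 (Kcnh4), zinc finger proteins 1 of 385 (Zfp879) and forkhead and Sox factors 1 of 59 (Foxo6). Cadherins and protocadherins had 0 of 89.

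In the lists of blood genes, lone peaks were counted at starts and inside genes. Of 20 measured erythroid genes 0 had a lone peak at a start, and of 12 myeloid genes 0. Of 17 lymphoid genes 1 did: Il7r, the interleukin 7 receptor, with Peak_64057 (chr15:9529118-9529341) at −log10 p of 2.80. Inside the gene, a lone peak was found in 1 of the 20 erythroid, 2 of the 12 myeloid (16.7%) and 5 of the 17 lymphoid genes (29.4%), against 7.48% of all genes. In the other lists this share ran from 1.53% of vomeronasal receptors to 14.2% of solute carriers and 19.8% of potassium channels. Gene length was not compared between the lists. Remaining peaks stood at the starts of 1 erythroid (5%), 3 myeloid (25%) and 4 lymphoid genes (23.5%) of these lists, against 2.94% of all genes. The lists are small: at the 1.11% of all genes with a lone peak at a start, 20 genes would hold fewer than 1.

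Among the solute carriers, 3 named peaks were described further. Slc30a3, a zinc transporter of vesicles, had Peak_4108 (chr5:31108672-31109012), with −log10 p of 6.05 and own values of 7.24 and 5.38. Slc7a8, a transporter of neutral amino acids, had Peak_4572 (chr14:54780420-54781135, 716 bp) at 5.81, with 10.9 and 5.59. Slc17a7, the vesicular glutamate transporter, had Peak_21359 (chr7:45164769-45165236) at 4.05, with 5.11 and 3.42. The 18 members named by list were at most the 5 strongest of each. Of these, 11 were overlapped by both replicates, 5 by replicate 1 only and 2 by replicate 2 only, and 1 reached a −log10 q of 2. Over all lone peaks the shares were 61.8%, 11.8% and 25.5%, and 2.99% reached that level.

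Inside genes, lone peaks were found in 1549 protein-coding genes (7.48%), of which 833 held no remaining peak. The median length of these 1549 genes was 54687 bp, and that of all genes 17603 bp, and a longer gene has more room for a peak. The most were in Rgs6, a regulator of G protein signalling (chr12:82588292-83162056), with 17 lone and 101 remaining peaks. Pde4d, a phosphodiesterase of cyclic AMP, followed with 15 lone and 52 remaining peaks over 1503514 bp. Both are long genes with many remaining peaks as well.

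Pde7b, another such phosphodiesterase, and Hpse2, a relative of heparanase, had 13 lone peaks each, with 36 and 37 remaining. Dnah11, a dynein heavy chain of cilia, had 12 lone and 8 remaining peaks. The calcium channel genes Cacna1c and Cacna1d had 11 and 10 lone peaks, with 45 and 63 remaining. Gm11639 had 11 lone and 105 remaining, Frmd5 10 and 65, and Pdzd2 10 and 14. Among the 10 genes Dnah11 alone held more lone than remaining peaks.

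The most isolated lone peaks were about as strong as lone peaks in general. The 5 with the longest gaps had −log10 p from 2.81 to 4.41, against a median of 3.58 over all lone peaks. Peak_32901 (chr4:70559500-70559661) and Peak_16449 (chr4:75222607-75222837) were each the nearest peak of the other, 4662945 bp apart. Peak_32901 was overlapped by replicate 2 only, at −log10 p of 6.48, and 91.8% of Peak_16449 was soft-masked. Peak_61891 (chr8:99878386-99878568), 461914 bp from the cadherin gene Cdh8, was overlapped by replicate 1 only. Peak_23789 (chr5:4926229-4926627), in an intron of the cyclin-dependent kinase gene Cdk14, was overlapped by replicate 2 only, and Peak_35155 (chr8:61159865-61160026) by replicate 1 only. Of these 5 peaks, 1 was overlapped by both replicates and 4 held no CpG.

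The lone peaks farthest from any annotated gene were narrow, with −log10 p around the median of 3.58 over all lone peaks. The farthest, Peak_31204 (chr2:56357335-56357497), lay 317249 bp from Gm13518 and 749332 bp from the protein-coding gene Nr4a2, an orphan nuclear receptor. It was overlapped by replicate 1 only, at −log10 p of 3.76. The next, Peak_16048 (chr3:61841415-61841600), lay 225939 bp from Gm9700, with 4.62 and 3.76 in replicates 1 and 2. The 5 farthest were 154 to 221 bp wide, with −log10 p from 2.81 to 4.41, and 3 of them were overlapped by both replicates.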

How the data were processed

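H3K27me3 ChIP-seq peak lists of 2 replicates of MEL were analysed. Per the file headers of the deposited text descriptions, the authors called each replicate's peaks on its own mm10 alignments against 1 shared control alignment, called the pooled list on both replicates together, and derived the replicated list from these 3. For the aligner, the caller and the rule for keeping a peak, nothing is given in the sources used here. The deposited lists hold a signal value (a score) per peak, with −log10 of its p-value and of its q-value, all computed by the authors. They carry no read counts, so depth is unknown.

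Computed here, with Python 3.11.15, numpy 2.4.6, pandas 2.3.3, scipy 1.17.1 and matplotlib 3.10.9, were gaps, overlaps of at least 1 bp, classes from GENCODE mouse release 21, composition from NCBI GRCm38.p6 and its soft-masking, whose method is not stated, and the same in all 200 bp tiles without N. Intervals are exact Clopper-Pearson 95% intervals, which cover counting error only and treat neighbouring peaks as independent. The code was tested on simulated data.

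Named are the 10 lone peaks with the highest −log10 p, the 10 genes with the strongest lone peak within 1 kb of a start, the 5 lone peaks farthest from other peaks and from genes, the 10 genes with the most lone peaks inside, and up to 5 members of each gene list; those not described are left out for length. Members, lists and motifs were chosen with earlier results of these data known. The tiles overlapped by each replicate, the overlap of each replicate's own lone peaks by strength and the counts over bands of p were added after the data were seen. The mm9 list is on another build and was not used here.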

Additional observations from a re-analysis of the deposited data

How the results depend on the processing

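No paired analysis was possible because the study has 1 group. Beside the remaining peaks under the same setting, lone peaks had the lower median width in 8 of 8 settings, the main one included. They had the lower overlap with each replicate in 7 of 7, the lower GC and masked share in 8 of 8 and the higher intergenic share in 8 of 8. Peaks lone also in the pooled list are an exception, since they were set beside the remaining peaks of the main setting. The median −log10 p was lower in 7 and equal in 1, among the peaks of replicate 2. The promoter share was lower in 7 and higher at −log10 q of 2 or more, where its cause was not tested. Read depth is unknown and limits every list. The values that moved beyond the replicate spread or the exact interval follow, with lone peaks found by the changed rule where the setting changes it. That spread is the SD of the values from the 2 own lists. It was 0.707 bp for width and 0 for −log10 p, so almost any change there counts as moved. For another pooled peak it was 12.8 points. The number of lone peaks was judged by a fold range instead.

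With a gap of 1000 bp there were 13640 lone peaks, with a median width of 248 bp, GC of 42.6%, overlap of 75.1% with replicate 1 and 88.2% with replicate 2, a promoter share of 3.37%, an intergenic share of 59.2%, and another pooled peak within 3 kb of 75.7%. With a gap of 10000 bp there were 3553, with 236 bp, GC of 41.8%, 72.4% with replicate 1, a masked share of 18.9% and an intergenic share of 62.9%. With peaks of −log10 q of 2 or more, 1916 were lone among themselves. The 217 of the main set at that level had a width of 320 bp, −log10 p of 6.21, overlap of 94.9% and 98.2%, GC of 41.5%, a masked share of 19.9%, a promoter share of 5.99%, an intergenic share of 63.6% and another pooled peak in 69.1%. In the upper 50% by signal value the values were 262 bp, 4.41, 84.3% and 93.1%, GC of 42.0%, masked 19.1%, promoter 3.78% and intergenic 61.0%. For the 3308 lone also in the pooled list they were 231 bp, 71.3% with replicate 1, GC of 41.8% and intergenic 62.1%, and another pooled peak is 0 by construction.

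With 50% of the lone peak covered, the overlap was 62.5% with replicate 1 and 79.0% with replicate 2. With own peaks of −log10 q of 2 or more it was 23.2% and 13.8%. The promoter share was 7.84% with 2.5 kb on each side, 2.16% with the outermost start only and 2.61% by the peak centre, which gave an intergenic share of 61.0%. GC in the central 200 bp was 42.0%.

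With each replicate's own list in place of the replicated list (without the other replicate), there were 11965 to 16350 lone peaks, with a width of 158 to 159 bp, −log10 p of 3.76 in each, GC of 41.8% to 41.9%, a promoter share of 2.42% to 2.62%, an intergenic share of 61.9% to 62.0% and another pooled peak in 12.5% to 30.6%. The masked share was 18.8% to 19.1%. Replicate 1 overlapped 6.65% of the lone peaks of replicate 2, and replicate 2 overlapped 18.1% of those of replicate 1. The replicated list was derived with both own lists read, which by construction favours overlap. A list's overlap with itself is complete and is not given.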
